A study of Mus musculus with 6 samples.

Results

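The insulin-like growth factor (IGF) genes described here are 10: the ligands Igf1 and Igf2, the receptors Igf1r and Igf2r, and the binding proteins Igfbp2, Igfbp3, Igfbp4, Igfbp5, Igfbp6 and Igfbp7. They were found by gene name among the non-control probes of the array, which gave 15 probes on 29 spots, of 55681 probes in all. All 10 had a probe that cleared background on 3 or more arrays, so all 10 are among the 21949 genes tested. RNA came from primary myoblasts, the precursors of skeletal muscle fibres, sorted by flow cytometry from skeletal muscle of male C57BL/6 mice aged 3 months and grown in DMEM with fetal bovine serum. TGFb, a secreted growth factor, was given for 4 days to 3 samples, and 3 samples were untreated. The labels name no other agent, genotype or allele, and call the samples of each group independent experiments. They do not say how many mice gave the cells.

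IGF1 and IGF2 signal through the IGF1 receptor, a tyrosine kinase that activates PI3K, AKT and mTOR, and in muscle this pathway drives myoblast proliferation, differentiation and fibre growth. Differentiating myoblasts make IGF2 themselves. The IGF2 receptor carries IGF2 to lysosomes and lowers its supply, and the secreted binding proteins hold IGFs in complexes until proteases free them. IGFBP7 is a more distant relative with weak affinity for IGFs.

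Values are log2 processed intensity minus the array's own 75th percentile of it, so 0 is the level of that percentile. A value compares arrays for 1 probe. It does not rank genes, because probes differ in brightness. The 75th percentile of intensity was 879 to 1578, and 52.0% to 56.7% of spots were well above background. With 3 arrays a group, the number of arrays limits the precision. Scanning took place on 2 days, with TGFb replicate 1 and the first 2 untreated replicates on day 1 and the other 3 arrays on day 2. The median gene differed by 0.78 (log2, absolute) between the days. Each of the 10 IGF genes is therefore given from a fit with the group alone and from a day-adjusted fit, which adds the scan day to the model. Most single genes of the other lists are given from only 1 of these fits. Untreated replicates 1 and 2 were closer to each other than any other pair, with a median absolute difference of 0.12 over genes against 0.31 for the next closest pair, TGFb replicate 1 and untreated replicate 2. Over the 10 IGF genes the median difference between them was 0.069. The names of their scanner files carry the same number, and results are also given with these arrays averaged as 1 sample. TGFb treatment showed in its direct target genes: 7 of 7 had higher values on every TGFb array than on any untreated array, against 8.42% of all genes. Of the 7, 2 rose in the fit with the group alone, against 0.697% of all genes. Among them was Ccn2, a matrix-associated growth regulator, which rose by 3.06 ± 0.24 (SE, adjusted p = 0.0111). After day adjustment 6 rose, against 4.61% of all genes, and 1 did not pass. Of 8 markers of myoblasts, 7, including Pax7 and Myod1, were well above background on all 6 arrays.

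Igf2 was lower after TGFb and Igfbp5 and Igfbp2 were higher, and these 3 genes passed the test in the day-adjusted fit. With slide as a block Igf2 passed (-2.06, adjusted p = 0.0284), but Igfbp5 (1.03, adjusted p = 0.0832) and Igfbp2 (0.65, adjusted p = 0.181) did not. Untreated replicate 1 and TGFb replicate 3 were each alone on a slide. The difference in that fit therefore rested only on TGFb replicates 1 and 2 and untreated replicates 2 and 3. None of the 10 genes passed with the group alone (limma, Benjamini-Hochberg over all genes, adjusted p under 0.05), where 1.4% of all genes passed, 0.697% rising and 0.706% falling. At an unadjusted p under 0.05 there were 4 of the 10, against 11.5% of all genes. In the day-adjusted fit 3 of 10 passed, against 10.2% of all genes, 4.61% rising and 5.61% falling. Values of the groups did not overlap for 6 of 10, against 17.9% of all genes: Igf1r, Igfbp2 and Igfbp5 were above (8.42% of all genes) and Igf2, Igfbp4 and Igfbp6 below (9.52%). The difference had the same sign within scan day 1 and within scan day 2 for 10 of 10, against 67.8% of all genes. With untreated replicates 1 and 2 as 1 sample, none passed with the group alone (2 at an unadjusted p under 0.05), and Igf2 alone passed after day adjustment. Of all 21949 genes, 0 passed there with the group alone (1461 at an unadjusted p under 0.05) and 650 after day adjustment. The plot of values by array shows all 10 genes, and the plot of fold changes sets the fits side by side.

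**Figure D1:**
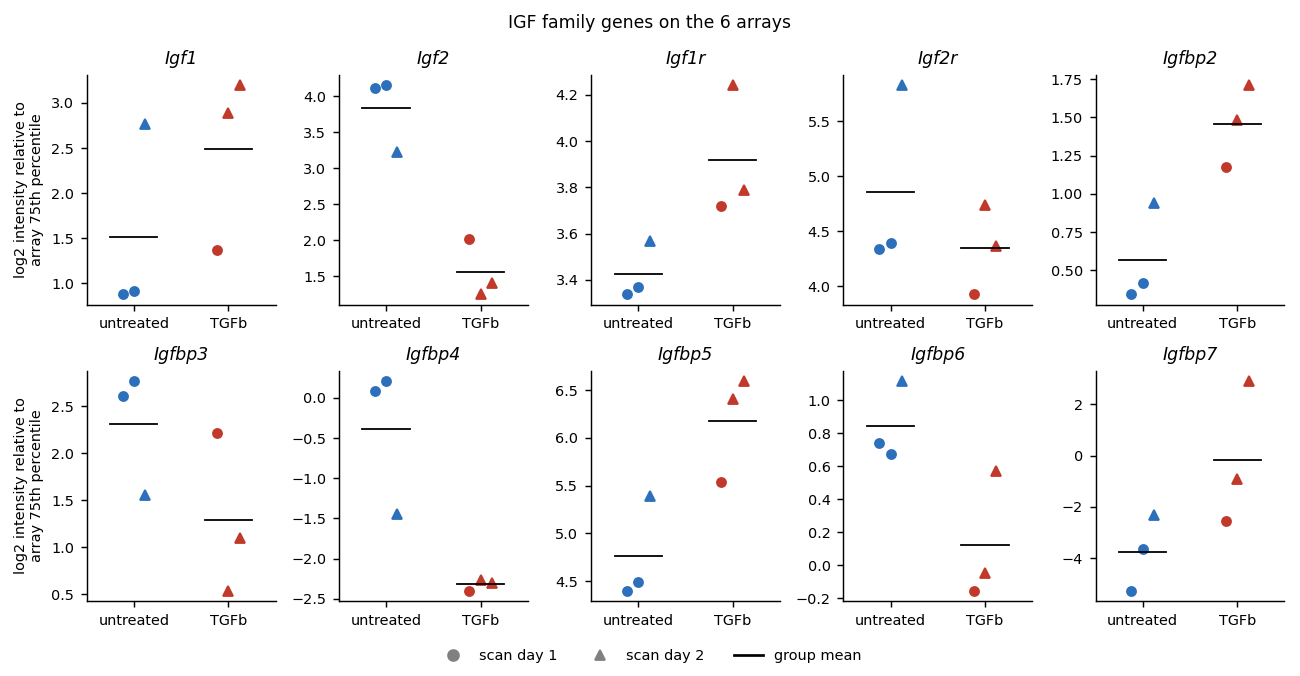
Each panel plots 1 gene on the 6 arrays as log2 intensity relative to the array's 75th percentile. Circles are scan day 1, triangles scan day 2, and lines are group means of 3 arrays. Igf2 lay between 1.25 and 2.02 on TGFb arrays and between 3.23 and 4.16 on untreated arrays. The Igf1 probe plotted, the brightest, followed the scan day, and the other Igf1 probes did not share its shift.

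The upstream sequences of Igf2, Igfbp2 and Igfbp5 are shown because these are the 3 genes that passed in the day-adjusted fit. RefSeq's table of start sites (build GRCm38.p6) held windows for all 10 genes, 14 windows in all. Each line below gives the 100 bases before a start, read 5′ to 3′ on the gene's own strand. The 4 windows of Igf2, all on the minus strand, are chr7:142657497-142657596, chr7:142658805-142658904, chr7:142661272-142661371 and chr7:142666817-142666916. Those of Igfbp2 are chr1:72824380-72824479 and chr1:72825287-72825386 on the plus strand, and that of Igfbp5 is chr1:72874866-72874965 on the minus strand. Capitals mark the motifs searched on both strands, which share no base in these windows.
Igf2 window 1: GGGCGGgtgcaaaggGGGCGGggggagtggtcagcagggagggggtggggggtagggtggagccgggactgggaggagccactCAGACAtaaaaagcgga
Igf2 window 2: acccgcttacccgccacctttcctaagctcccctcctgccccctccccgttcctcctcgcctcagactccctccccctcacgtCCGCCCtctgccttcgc
Igf2 window 3: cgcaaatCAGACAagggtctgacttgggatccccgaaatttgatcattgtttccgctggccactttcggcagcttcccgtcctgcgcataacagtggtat
Igf2 window 4: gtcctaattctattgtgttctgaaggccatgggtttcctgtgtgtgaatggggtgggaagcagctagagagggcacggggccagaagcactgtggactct
Igfbp2 first start: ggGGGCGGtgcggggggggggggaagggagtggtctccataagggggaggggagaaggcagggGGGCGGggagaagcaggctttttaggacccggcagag
Igfbp2 second start: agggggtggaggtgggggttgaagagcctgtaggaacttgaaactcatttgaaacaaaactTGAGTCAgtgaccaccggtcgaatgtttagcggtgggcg
Igfbp5: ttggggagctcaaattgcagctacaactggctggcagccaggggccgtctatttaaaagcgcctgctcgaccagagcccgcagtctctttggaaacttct

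The motifs were CAGACA, an element that SMAD proteins can bind, CAGCTG, an E-box form, GGGCGG, a GC box, TATAAA, and TGAGTCA, an AP-1 site. They were searched in the 250 bases before each start. CAGACA was in 2 of the 14 windows, both of Igf2, against 17.1% of 32851 windows of the same length. In window 1 its bases lay 17 to 12 before the start and in window 3 they lay 93 to 88 before it. TGAGTCA was in 1 window, the second of Igfbp2, against 4.46% of all. GGGCGG was in 6 windows, of Igf2, Igf1r, Igf2r, Igfbp2 and Igfbp7, against 32.7%. TATAAA was in a window each of Igfbp4 and Igfbp6, against 12.4%, and CAGCTG in that of Igf1, against 13%. The window of Igfbp5 held none of these letters. A match is a description of letters and not of a bound site.

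Igf2 encodes the ligand made by differentiating myoblasts, and its probe lies at chr7:149839661-149839720 on the minus strand of mm9, the build of the array's probe positions. Its values were 2.02, 1.25 and 1.40 on TGFb arrays 1 to 3, and 4.11, 4.16 and 3.23 on untreated arrays 1 to 3. The TGFb arrays were all below the untreated arrays, and the untreated array nearest to them was the one scanned on day 2. The scaled values follow processed intensities of 3873, 2834 and 3617 in TGFb samples and 15173, 17887 and 14832 in untreated samples, which did not overlap either. The difference was -2.28 ± 0.38 (SE, n = 3 against 3, adjusted p = 0.0586) with the group alone and -2.01 ± 0.14 (adjusted p = 0.00274) in the day-adjusted fit, so that Igf2 fell 4.03-fold in the second fit. Within day 1 the difference was -2.11 and within day 2 it was -1.91. A larger absolute difference in the day-adjusted fit was found for 2.31% of genes. Igf2 passed after day adjustment whichever array was left out, with adjusted p between 0.00523 and 0.0386, and with untreated replicates 1 and 2 as 1 sample (adjusted p = 0.0252).

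Igf2 is imprinted, and H19, a noncoding RNA of the same imprinted domain, had values from 9.05 to 9.16 on TGFb arrays and from 8.92 to 9.33 on untreated arrays. The ranges overlapped, and the difference was -0.04 ± 0.25 (adjusted p = 0.952), or 0.01 ± 0.16 after day adjustment (adjusted p = 0.988). The H19 probe is bright, and saturated spots were kept, with 0 on each day 1 array and 2 to 77 on the day 2 arrays. Its difference was -0.17 within day 1 and 0.18 within day 2. Of 21 other imprinted genes tested of 27 listed, H19 included, 3 fell with the group alone, against 0.706% of all genes. Meg3, a noncoding RNA, fell by 4.36 ± 0.34 (adjusted p = 0.0111), Mirg, a neighbouring noncoding RNA that was well above background on 1 of 3 TGFb arrays, by 2.99 ± 0.34 (adjusted p = 0.02), and Dlk1, a membrane protein of the same domain, by 2.28 ± 0.36 (adjusted p = 0.0499). After day adjustment 7 of the 21 fell, against 5.61% of all genes, and 1 rose, against 4.61%. Those added were Asb4, Peg10, Usp29 and Cdkn1c, an inhibitor of cyclin-dependent kinases, which fell by 2.05, 1.48, 0.99 and 0.82, and Slc22a18, an organic cation transporter, which rose by 1.70. Leaving out 1 array at a time left 0 to 2 of the 21 passing with the group alone (0 to 197 of all genes) and 3 to 8 after day adjustment (330 to 3342 of all genes). When untreated replicates 1 and 2 counted as 1 sample, limma called 0 with the group alone (7 at an unadjusted p under 0.05) and 3 after day adjustment. The counts over all 21949 genes were 0, 1461 and 650.

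Igf1 encodes the other ligand, and 5 probes measured it, all well above background on all 6 arrays. The brightest of them stands for the gene, at chr10:87393581-87393640 on the plus strand of mm9. Its values were 1.37, 2.89 and 3.20 with TGFb and 0.88, 0.91 and 2.76 without. The groups overlapped, and the 3 arrays scanned on day 2 were the 3 highest. The difference was 0.97 ± 0.72 (SE, adjusted p = 0.702) with the group alone and 0.38 ± 0.16 (adjusted p = 0.207) after day adjustment, while day 2 exceeded day 1 by 1.77 ± 0.16 (adjusted p = 0.00106).

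The other Igf1 probes did not share this shift between days. Along the chromosome, day 2 minus day 1 was 0.26, -0.38, 1.77, -2.61 and -0.38 for the 5 probes in a fit over probes. Probes 2 and 3, at chr10:87393561-87393620 and chr10:87393581-87393640, share 40 of their 60 bases. They differ by the 20 bases that each holds alone, at the start of probe 2 and at the end of probe 3, shown because their shifts went opposite ways.
Igf1 probe 2, first 20 bases: cctaccaaataacaataata
Igf1 probe 3, last 20 bases: aatatacaagtaaacattcc
In the day-adjusted fit the TGFb difference of the 5 probes was 0.51, 0.39, 0.38, -0.08 and 0.22, with adjusted p between 0.227 and 0.816. The 4 probes with a positive sign thus lay close together in that fit, and none passed. Each Igf1 probe was printed on 2 spots, whose SD within an array was at most 0.52, 0.077, 0.13, 0.64 and 0.21 for probes 1 to 5, above the shift between days for probe 1 and below it for the other 4. What sets these shifts was not tested.

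**Figure D2:**
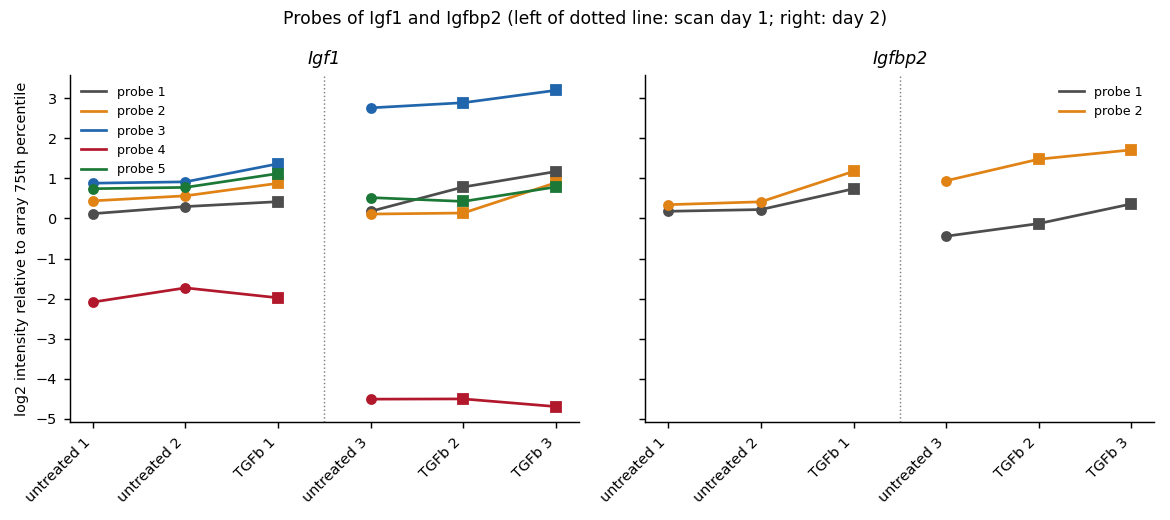
Lines join the values of 1 probe over the 6 arrays for Igf1 (left) and Igfbp2 (right), in log2 intensity relative to the array's 75th percentile; circles are untreated and squares TGFb arrays, with probes numbered along the chromosome. Igf1 probe 3 stepped up and probe 4 stepped down from day 1 to day 2, and both Igfbp2 probes were higher with TGFb within each day.

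Igf1r encodes the signalling receptor (probe at chr7:75378461-75378520, plus strand, mm9). Its values were 3.72, 4.24 and 3.79 with TGFb and 3.34, 3.37 and 3.57 without. All TGFb arrays were above all untreated arrays, by a narrow margin for TGFb replicate 1. The difference of 0.49 ± 0.27 (adjusted p = 0.585), or 0.41 ± 0.18 after day adjustment (adjusted p = 0.219), did not pass. Within day 1 it was 0.37 and within day 2 it was 0.45.

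Igf2r encodes the receptor that clears IGF2. Its 1 probe, printed on 10 spots, lies on the minus strand of chromosome 17, where the array's annotation lists a span shorter than the probe, from 12875253 to 12875263. Values were 3.93, 4.74 and 4.37 with TGFb and 4.34, 4.39 and 5.83 without. The groups overlapped, and untreated replicate 3 stood above the other 5 arrays, although the SD over spots was only 0.032 to 0.086. The difference was -0.50 ± 0.49 (adjusted p = 0.763), and -0.85 ± 0.24 (adjusted p = 0.095) after day adjustment. Without untreated replicate 3 it was -0.02, and -0.43 after day adjustment.

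Igfbp5 encodes a binding protein that muscle cells secrete in large amounts when they differentiate and that binds matrix (probe at chr1:72904829-72904888, minus strand, mm9). Its values were 5.54, 6.41 and 6.59 with TGFb and 4.40, 4.49 and 5.39 without. All TGFb arrays were above all untreated arrays, and within each group the day 2 arrays were higher. Before scaling, the intensities were 44405, 101110 and 131870 with TGFb against 18608, 22495 and 66159 without, which overlapped. The difference of 1.42 ± 0.43 did not pass with the group alone (adjusted p = 0.256). In the day-adjusted fit Igfbp5 rose by 1.10 ± 0.14 (adjusted p = 0.0113, 2.15-fold), with 1.09 on day 1 and 1.11 on day 2. Its call was kept without TGFb replicate 2 or 3. It was lost without TGFb replicate 1 or any 1 untreated array (adjusted p 0.075 to 0.106), and with untreated replicates 1 and 2 as 1 sample (1.10, adjusted p = 0.0752), where the difference changed little.

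Igfbp2 encodes a binding protein that prefers IGF2. Its brighter probe, at chr1:72898813-72898872 on the plus strand of mm9, gave 1.18, 1.48 and 1.71 with TGFb and 0.34, 0.42 and 0.94 without. The groups did not overlap. The difference was 0.89 ± 0.30 (adjusted p = 0.319) with the group alone, and after day adjustment Igfbp2 rose by 0.73 ± 0.15 (adjusted p = 0.042, 1.65-fold). The other probe, at chr1:72898677-72898736, gave 0.74, -0.13 and 0.36 with TGFb and 0.18, 0.22 and -0.44 without, so its groups overlapped. In the fit over probes its difference after day adjustment was 0.55 ± 0.19 (adjusted p = 0.151), and that of the brighter probe was 0.73 ± 0.16 (adjusted p = 0.0526). Like Igfbp5, Igfbp2 kept its call without TGFb replicate 2 or 3 and lost it without TGFb replicate 1 or any 1 untreated array (adjusted p 0.169 to 0.185), while the difference in those fits stayed between 0.65 and 0.80. In RefSeq's gene table Igfbp2 and Igfbp5 are neighbours on chromosome 1.

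Igfbp4 encodes a binding protein that the protease PAPP-A cleaves (probe at chr11:98913334-98913393, plus strand, mm9). Its values were -2.40, -2.27 and -2.30 with TGFb and 0.08, 0.21 and -1.44 without. The TGFb arrays lay within a narrow range below all untreated arrays, and untreated replicate 3 was much nearer to them than the other untreated arrays were. The difference of -1.94 ± 0.49 (adjusted p = 0.174), or -1.69 ± 0.39 after day adjustment (adjusted p = 0.0577), did not pass. It was -2.54 within day 1 and -0.84 within day 2. Without untreated replicate 3 Igfbp4 passed, at -2.47 (adjusted p = 0.0358) with the group alone and -2.54 (adjusted p = 0.0319) after day adjustment.

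Igfbp6 encodes a binding protein with a strong preference for IGF2 (probe at chr15:101979852-101979911, plus strand, mm9). Its values were -0.15, -0.05 and 0.57 with TGFb and 0.74, 0.67 and 1.11 without. The TGFb arrays were all lower, with TGFb replicate 3 just under the lowest untreated array. The difference was -0.72 ± 0.31 (adjusted p = 0.47) and -0.86 ± 0.21 after day adjustment (adjusted p = 0.0671). It was -0.86 within day 1 and -0.85 within day 2. It passed in 1 of the day-adjusted fits that left out an array, the one without TGFb replicate 3 (-0.99, adjusted p = 0.0226).

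Igfbp3 encodes the main carrier of IGFs in serum (probe at chr11:7106594-7106653, minus strand, mm9). Its values were 2.22, 0.54 and 1.10 with TGFb and 2.61, 2.76 and 1.55 without. The groups overlapped, since TGFb replicate 1 was above untreated replicate 3. Day 2 was below day 1 by 1.27 ± 0.21 (adjusted p = 0.00554). The TGFb difference was -1.03 ± 0.55 (adjusted p = 0.578), and -0.60 ± 0.21 after day adjustment (adjusted p = 0.142). Igfbp1, its neighbour in RefSeq's gene table and a binding protein known from liver, was well above background on 1 array and was not tested.

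Igfbp7 had the widest spread of the 10 genes within both groups (probe at chr5:77778271-77778330, minus strand, mm9). Its values were -2.55, -0.90 and 2.89 with TGFb and -5.27, -3.66 and -2.32 without. TGFb replicate 3 was far above the others, untreated replicate 3 lay above TGFb replicate 1, and the untreated arrays cleared background for this probe in 2 of 3 cases. The difference of 3.56 ± 1.49 did not pass (adjusted p = 0.447), nor did that of 2.62 ± 1.14 after day adjustment (adjusted p = 0.218). Without TGFb replicate 3 these were 2.02 and 1.70. With slide as a block the difference was 1.27 (adjusted p = 0.0649), to which TGFb replicate 3 and untreated replicate 1, each alone on a slide, did not contribute.

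**Figure D3:**
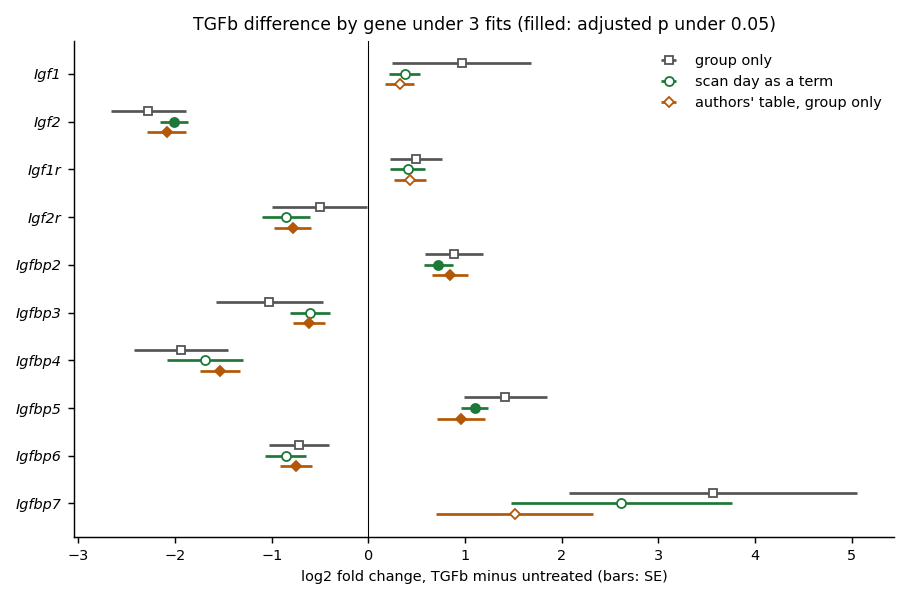
Points are the log2 difference of TGFb minus untreated for the 10 genes, with SE bars, from the fit with the group alone, the day-adjusted fit and a fit of the authors' deposited table. Filled points have an adjusted p under 0.05: none with the group alone, 3 in the day-adjusted fit and 7 in the authors' table, and each gene has the same sign in all 3 fits.

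The authors' deposited table of normalized values gave the same sign for each of the 10 genes and smaller differences between days, with a median over genes of 0.14 against 0.78 in the scanner values. The sources used here do not give its normalization. In it 7 of the 10 passed with the group alone, where 15% of all genes passed. Igf2 differed by -2.09 (adjusted p = 0.000856), Igfbp4 by -1.53 (0.00347), Igfbp2 by 0.85 (0.024) and Igfbp6 by -0.74 (0.0244). Igf2r differed by -0.78 (0.0348), Igfbp5 by 0.96 (0.04) and Igfbp3 by -0.61 (0.0489). Igf1, Igf1r and Igfbp7 did not pass there.

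Genes that release or handle IGFs were measured on the same arrays, and 10 of the 14 listed were tested. None passed with the group alone (3 at an unadjusted p under 0.05, against 11.5% of all genes). After day adjustment 2 rose and 2 fell, against 4.61% and 5.61% of all genes. Pappa, the gene of PAPP-A, gave -0.83, 1.43 and 2.09 with TGFb and -3.45, -3.83 and -0.47 without. TGFb replicate 1 was below untreated replicate 3, so the groups overlapped, and after day adjustment Pappa rose by 2.52 ± 0.27 (adjusted p = 0.007). Pappa2, a related protease that cleaves IGFBP5, gave -2.01, -1.10 and -1.84 with TGFb and -0.26, -0.38 and 1.10 without. Its groups did not overlap, and it fell by 2.13 ± 0.30 after day adjustment (adjusted p = 0.0155). Htra1, a secreted serine protease, rose by 1.56 ± 0.27 (adjusted p = 0.0268), and Igf2bp1, an RNA-binding protein that binds Igf2 transcripts, fell by 0.90 ± 0.17 (adjusted p = 0.0322), both in the day-adjusted fit. The insulin receptor gene Insr differed by -0.55 ± 0.32 in that fit (adjusted p = 0.331). Day-adjusted calls numbered 0 to 4 when 1 array was left out (330 to 3342 of all genes), and 1 when untreated replicates 1 and 2 counted as 1 sample (650 of all genes).

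Downstream of the IGF1 receptor, 38 of 38 listed genes were tested and 1 passed with the group alone, against 1.4% of all genes. Grb10, an imprinted adaptor that inhibits the receptor, was well above background on all 3 untreated arrays and on no TGFb array. It fell at least 2.34-fold, with measured means of -6.68 with TGFb and -4.04 without (adjusted p = 0.0276). In the day-adjusted fit 3 of the 38 rose and 4 fell, against 4.61% and 5.61% of all genes. The median difference in that fit was -0.18 over the list and 0.04 over all genes. Irs2, a docking protein of the receptor, rose by 1.15 ± 0.22 (adjusted p = 0.0353), while Irs1 differed by -0.19 ± 0.22 (adjusted p = 0.627). Grb14, another inhibitory adaptor, rose by 1.54 ± 0.25 (adjusted p = 0.0213). The kinase gene Akt2 fell by 1.37 ± 0.18 (adjusted p = 0.0129), and Akt1 differed by -0.46 ± 0.14 (adjusted p = 0.102). The transcription factor gene Foxo3 fell by 0.83 ± 0.15 (adjusted p = 0.0322). Of the muscle ubiquitin ligases that FoxO factors are known to induce, Fbxo32 rose by 1.10 ± 0.23 (adjusted p = 0.0462) and Trim63 fell by 1.13 ± 0.16 (adjusted p = 0.0163). Grb10's call with the group alone was lost whichever array was left out. Day-adjusted calls in the list numbered 0 to 8 when 1 array was left out (330 to 3342 of all genes). They numbered 1 when untreated replicates 1 and 2 counted as 1 sample (650 of all genes).

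Of 15 genes of differentiating myoblasts, 1 fell with the group alone (0.706% of all genes) and 6 fell after day adjustment (5.61%), none rising in either fit. The median difference over the list was -0.62 after day adjustment. Tnnc2, a fast-muscle troponin, fell by 3.06 ± 0.27 with the group alone (adjusted p = 0.0149). Ckm, muscle creatine kinase, fell by 1.53 ± 0.19 after day adjustment (adjusted p = 0.00963), as did Mef2c, a myogenic transcription factor, by 1.74, Tnnt3, another troponin, by 1.66, Des, an intermediate filament, by 1.28 and Acta1, skeletal actin, by 1.24. Myog, the transcription factor that starts differentiation, gave lower values on every TGFb array, and its difference of -0.51 ± 0.16 did not pass (adjusted p = 0.122). The list had 1 to 7 day-adjusted calls when 1 array was left out (330 to 3342 of all genes), and 3 when untreated replicates 1 and 2 counted as 1 sample (650 of all genes).

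**Figure D4:**
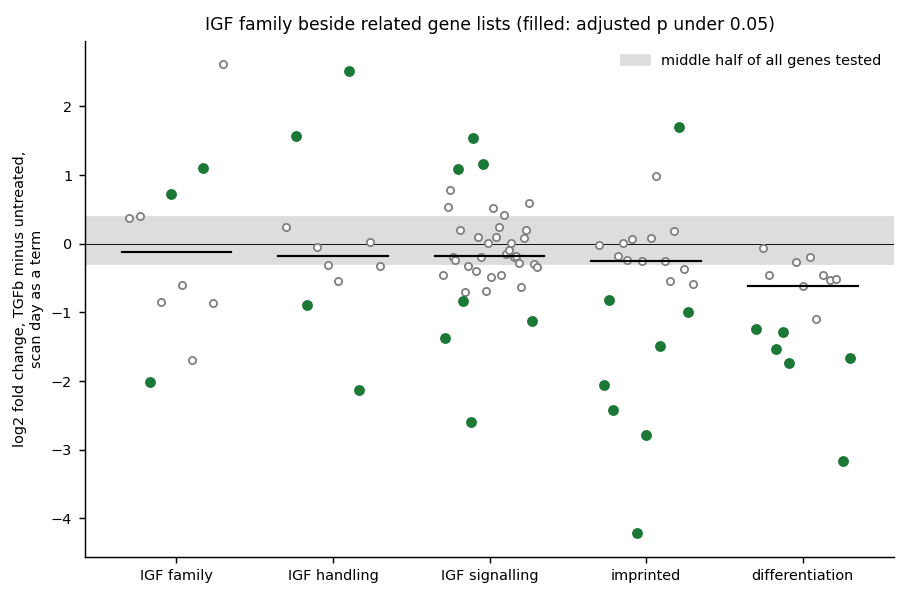
Points are the log2 differences of TGFb minus untreated in the day-adjusted fit, 1 point a gene, for the IGF genes and 4 lists; filled points have an adjusted p under 0.05, black lines are list medians and the grey band holds the range from -0.29 to 0.39 that spans the central quartiles of all genes. The median was -0.11 for the 10 IGF genes and -0.62 for the differentiation genes.

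The genes most like Igf2 over the 6 arrays, by the root mean square difference after centring each gene on its mean and among 12362 genes, were Atp2a1 (0.107), the calcium pump of fast muscle fibres, B4galt4 (0.13), a galactosyltransferase, and Cnih3 (0.155), a cornichon family protein. Those most like Igfbp5 were Ntf5 (0.0645), a neurotrophin, Sox9 (0.0756), a transcription factor of cartilage, and Flna (0.0806), an actin cross-linking protein. These genes were ranked by likeness over all arrays and so share both the scan-day and the group pattern, which makes their differences a description. For Atp2a1 the difference after day adjustment was -2.10, and for Sox9 it was 1.21.

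Markers of other cell types that such cultures can hold were also read, as sums of linear values in multiples of the array's 75th percentile. In bulk RNA, fewer cells of a type and less RNA per cell cannot be told apart. Pericyte markers summed to 14.1 to 36.2 with TGFb and 6.31 to 12.7 without, and Rgs5, by 1 probe, made up most of this sum on every array. Of these 4 markers, Rgs5 rose after day adjustment (1.57 ± 0.23, adjusted p = 0.0164), Abcc9 fell with the group alone (-2.63 ± 0.26, adjusted p = 0.0149) and Kcnj8 was above background on no array. Schwann cell markers summed to 2 to 3.26 with TGFb and 1.25 to 1.56 without, with Cdh19 above background on no array. Adipocyte markers summed to 0.256 to 0.35 against 0.454 to 0.536, with Adipoq, Plin1, Lep and Cidec above background on none. Most of the Schwann cell sum and most of the adipocyte sum came from 1 marker each on every array. The differences in the pericyte, Schwann cell and adipocyte sums are thus mainly those of single genes. The sums of both groups overlapped for markers of myoblasts (252 to 514 with TGFb and 299 to 516 without), fibro-adipogenic progenitors (2.7 to 5.18 and 2.1 to 3.45), endothelial cells (0.429 to 2.93 and 0.341 to 3.17) and leukocytes (16.7 to 117 and 16.5 to 66.5). Dpt among the progenitor markers, Tek, Emcn and Cldn5 among the endothelial markers and Cd68 among the leukocyte markers were above background on no array. Of the other leukocyte markers, Ptprc was above background on 1 array and Adgre1 on 2. Itgam, by 1 probe, made up most of the leukocyte sum. Its day 2 values exceeded day 1 by 2.43 ± 0.21, and its TGFb difference after day adjustment was 0.36 ± 0.21 (adjusted p = 0.334). Single markers moved after day adjustment where sums overlapped: Dcn, a matrix proteoglycan among the progenitor markers, fell by 2.57 ± 0.37 (adjusted p = 0.0162), and among the myoblast markers the adhesion gene Ncam1 rose by 1.28 ± 0.16 (adjusted p = 0.0106) and Des fell. The part of other cell types in the differences of the IGF genes was not tested.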

How the data were processed

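The authors deposited 1 scanner file per array (1-colour Agilent, Cy3) holding the intensity of each spot, extracted with Feature Extraction 10.7.3.1, per the file headers, which also name mm9. Processed intensity there is background-subtracted. Intensities near background carry substitute values, so differences of dim probes are less certain. The authors also deposited 1 table of log2 values, normalized, used as an alternative. Each of its columns followed the log2 signal of its own array best (r over probes 0.992 to 0.993) and had a median of 6.99 to 7.00, which leaves its normalization and centring unknown.

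From processed intensity, log2 values were taken relative to the array's 75th percentile, without control or outlier spots, and averaged over the spots of each probe. Saturated spots, 0 to 77 an array, were kept. Testing asked for a probe above background (Feature Extraction's own call) on 3 or more of 6 arrays, and the brightest tested probe stood for its gene. Names were updated through RefSeq's gene table for the 26300 probes whose accession it held. TGFb was set against untreated by limma 3.58.1 (R 4.3.3, lmFit and eBayes) with the group alone, with p-values adjusted by Benjamini-Hochberg over 21949 genes at 0.05. A bound for a gene below background in 1 group uses, per array, the higher of the lowest signal well above background and the probe's own. The labels state independent experiments but not separate cultures or animals, so p-values measure only the spread between these samples, which may be technical.

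The IGF genes are named whatever their values. From the other lists, each gene that passed with or without scan day is named, with Igfbp1, Irs1, Irs2, Akt1, Insr, H19, Myog and Ckm whatever their values, and the 3 genes most like Igf2 and Igfbp5. From the marker and TGFb target lists a few genes were named for illustration after their values were seen, and 1 gene is not reported here. The members and lists were chosen with earlier results of these data known. Alternatives were scan day, slide or replicate number as a term, quantile normalization, normexp, other filters, the mean of probes, the authors' table and leaving out each array. Added after seeing the data were a fit over probes and untreated replicates 1 and 2 as 1 sample.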

Additional observations from a re-analysis of the deposited data

How the results depend on the processing

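Read by the probe that stands for it or by the mean of its probes, none of the 10 IGF genes changed sign under any setting. Igfbp7 was not fitted where all 6 arrays had to be above background. Among the other probes, Igf1 probe 4 had the opposite sign to the chosen one, at -0.95 with the group alone and -0.08 after day adjustment. The main counts of genes that passed were 0 of the IGF genes, 0 handling, 1 signalling, 3 imprinted and 1 differentiation gene, and 308 of all genes. In the day-adjusted fit, which adds scan day, they were 3, 4, 7, 8, 6 and 2242. In the authors' table they were 7, 4, 12, 8, 8 and 3293. With slide as a block 1 IGF gene (Igf2), 3 handling and 3 differentiation genes and 776 of all genes passed. The difference in that fit rests only on the arrays that share a slide. With normexp and quantile normalization 1 IGF gene (Igfbp5), 0 signalling and 3 differentiation genes and 390 of all genes passed. With the mean of a gene's probes 1 IGF gene (Igf2), 2 differentiation genes and 397 of all genes passed. Quantile normalization gave 2 differentiation genes and 353 of all genes, and the filter that asked for all 6 arrays gave 0 signalling and 2 differentiation genes and 246 of all genes.

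Correlations of deviations between same-numbered samples were 0.808, -0.716 and 0.691 for replicates 1 to 3. Replicates 1 and 3 were each scanned on the same day in both groups, and replicates 2 on different days. The signs thus follow the scan day, so these correlations cannot show whether the samples were paired. With the replicate block 2 of all genes passed and 0 signalling, imprinted and differentiation genes. The replicate numbers are no stated pairs, so a call lost there is not read as a weaker effect.

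Leaving out 1 array at a time with the group alone gave 0 to 1 IGF genes, 0 signalling, 0 to 2 imprinted and 0 to 1 differentiation genes and 0 to 197 of all genes. The day-adjusted fit then gave 1 to 4 IGF, 0 to 4 handling, 0 to 8 signalling, 3 to 8 imprinted and 1 to 7 differentiation genes. Of all genes it called 672, 1752 and 3342 without TGFb replicate 1, 2 or 3, and 673, 617 and 330 without untreated replicate 1, 2 or 3. With untreated replicates 1 and 2 as 1 sample, 0 of all genes passed (1461 at an unadjusted p under 0.05) and 0 signalling, imprinted and differentiation genes. After day adjustment, 650 of all genes, 1 IGF, 1 handling and 3 differentiation genes passed. The cause of these shifts was not tested, and fits with fewer samples have fewer residual degrees of freedom. Dim values such as Igfbp7 on untreated replicate 1, and Grb10 and Mirg on TGFb arrays, lie near background, which limits their values. Groups of 3 arrays are too small for a test for outlying arrays.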
